A study of Saccharomyces cerevisiae with 6 samples.

Results

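The genes described here code for proteins of the large (60S) subunit of the cytosolic ribosome of the yeast Saccharomyces cerevisiae. They were chosen by name: 60 RPL genes of the 6212 ORFs listed, leaving out the genes on chromosomes XII and XIII, RPL41A and RPL41B, and the acidic stalk proteins. Of these 60 genes, 58 had a row of values and 56 had a value on every array. The response to rapamycin was measured in 3 strains on 2-colour DNA arrays. Wild type cells were BY4741 (MATa his3 leu2 met15 ura3), ptc6 cells carried ptc6::nat1 in the same background, and ptc1 ptc6 cells carried ptc6::kanMX4 with ptc1::nat1, also in BY4741. PTC1 and PTC6 code for type 2C protein phosphatases, Ptc1 being found mainly in the cytosol and nucleus and Ptc6 being known as a mitochondrial enzyme. Cells of each strain were grown in rich glucose medium at 28 °C and received 200 ng/ml rapamycin for 1 h or the vehicle alone (mock). A ptc1 single mutant treated with rapamycin was not analysed here.

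Rapamycin inhibits the TORC1 kinase complex, which in growing yeast keeps the genes of ribosomal proteins transcribed. Promoters of most of these genes are bound by Rap1 and Fhl1, and the coactivator Ifh1 leaves such promoters when TORC1 is inhibited, as their transcription falls. Most ribosomal proteins of yeast are encoded by a pair of paralogs, A and B, left by an ancient duplication of the genome. The large subunit carries the peptidyl transferase centre, the exit tunnel for the growing chain, the 5S ribonucleoprotein, the side that binds translation factors and the L1 stalk at the E site, from which used tRNAs leave.

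For each strain, RNA of the treated and of the mock culture was hybridised to a first array, and to a second with Cy3 and Cy5 exchanged. The sources used here do not say whether both arrays of a strain hold the same 2 RNA extracts or those of separate cultures. They were counted as 1 biological replicate, so no test between strains was made and no p-value is given. Where 2 strains were compared, the spread is the range over the 4 pairs made of 1 array from each strain, which may cover technical error only. Between 3620 and 4546 ORFs had a value on an array, and the small number of arrays limits the precision. Values are log2 ratios of treated over mock cells within a strain, so from them a higher level in mock cells and a lower level in treated cells cannot be told apart. The study also compared untreated mutants with wild type cells on separate arrays, which were not used here. It reports almost no change of expression in untreated ptc6 cells. PTC6 read 1.11 and 0.62 on the wild type arrays and had no value on any array of the mutants. PTC1 read -0.28 on wild type array 2 and had no value on any other array, also in ptc6 cells, which keep this gene. A missing value therefore does not show a deletion.

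All large subunit protein genes that could be scored fell by more than 2-fold with rapamycin in all 3 strains. A gene was called repressed when the mean log2 ratio of both arrays lay below -1, and 56 of 56 genes met this limit in wild type cells, against 18.0% of all ORFs outside chromosomes XII and XIII. The count was 57 of 57 in ptc6 cells, where the limit took 13.6% of ORFs, and 56 of 56 in ptc1 ptc6 cells, where it took 14.5%. In wild type cells the median log2 ratio of the genes was -3.65, a 12.6-fold repression, with the lowest mean at -4.43 and the highest at -1.84. In ptc6 cells the median was -3.04, or 8.22-fold, with means between -3.92 and -1.69. In ptc1 ptc6 cells it was -3.67, or 12.7-fold, with means between -4.55 and -1.99. A mean below -4, past 16-fold, was found for 14 genes in wild type cells, for 12 in ptc1 ptc6 cells and for 0 in ptc6 cells. Of all ORFs outside chromosomes XII and XIII, 1.63%, 0.779% and 0.0923% passed this limit in the same order, so that it was rarer in ptc6 cells over all ORFs too. Both arrays of a strain differed for a gene by a median of 0.27 log2 units in wild type, 0.34 in ptc6 and 0.38 in ptc1 ptc6 cells.

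**Figure D1:**
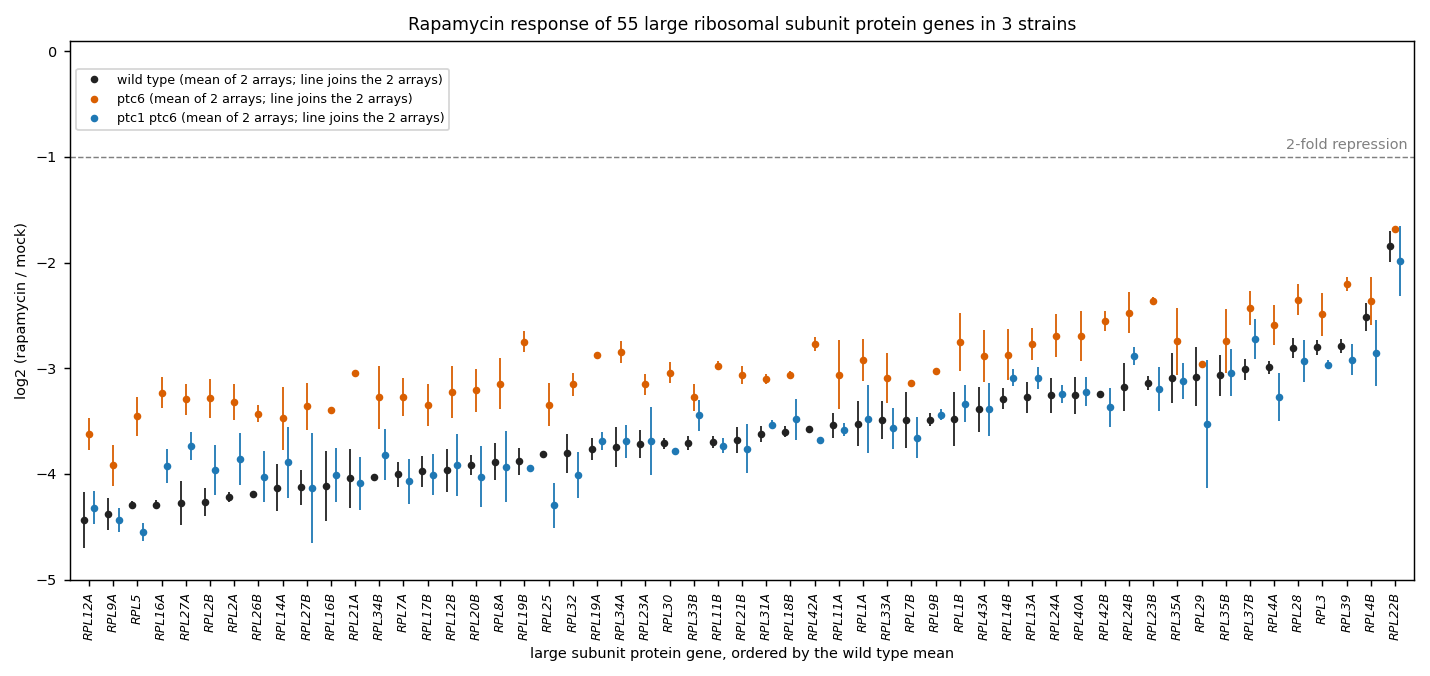
Log2 ratio of rapamycin-treated over mock cells (y axis) for 55 of the 56 genes with values on every array, ordered by the wild type mean (x axis); dots are means of the 2 arrays of a strain and lines join these arrays. The ptc6 mean is the highest of the 3 strains for all 55 genes shown, whereas the ptc1 ptc6 mean lies above the wild type mean for 27 genes and below it for 28, and every mean is under the dashed line at 2-fold repression.

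Repression in wild type cells was not even over the group. The lowest value belonged to RPL12A (YEL054C), which codes for a protein at the base of the stalk and read -4.70 and -4.17 on arrays 1 and 2. Next came RPL9A (YGL147C) at -4.53 and -4.23, whose protein lies on the factor-binding side, and RPL5 (YPL131W) at -4.33 and -4.26, whose protein binds the 5S rRNA. RPL16A (YIL133C) followed at -4.33 and -4.25 and RPL27A (YHR010W) at -4.48 and -4.07. The arrays of these 5 genes overlap, so their order is not set by these data.

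At the other end, RPL22B (YFL034C-A) read -1.70 and -1.99, a 3.59-fold repression, and stood apart from every other gene of the group in wild type cells. The RPL22B protein is not essential, and its transcript is known to be held back at splicing by Rpl22 itself. Also among the least repressed were RPL4B (YDR012W) at -2.65 and -2.38, RPL39 (YJL189W) at -2.72 and -2.86 and RPL3 (YOR063W) at -2.87 and -2.73. RPL4B lay above RPL39 and RPL3 on both arrays. RPL30 (YGL030W), whose protein is known to control the splicing of its own transcript, lay inside the range at -3.76 and -3.66.

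Rapamycin repressed the group less in ptc6 than in wild type cells, by the means of both arrays. Of 56 genes compared, 56 had a higher mean in ptc6 than in wild type cells, by a median of 0.62 log2 units (0.34 to 0.92 over the 4 pairs of arrays) and between 0.12 and 1.13 for single genes. Both ptc6 values lay above both wild type values for 49 of the 56 genes (87.5%), against 29.3% of all ORFs outside chromosomes XII and XIII. Among ORFs repressed in wild type cells other than the group itself the share was 76.5%. These ORFs were picked by low values on the same wild type arrays, whereas the group was chosen by name. Such picking by itself favours higher values in a mutant, here and in later comparisons with wild type cells. How much of the 76.5% it accounts for was not tested. For 0 genes of the group both ptc6 values lay below both wild type values, against 18.1% of all ORFs and 1.09% of the other repressed ORFs. A gap of at least 0.25 between the nearest values of the strains was seen for 33 genes, against 13.9% of all ORFs and 54.6% of the other repressed ORFs.

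The largest of these differences were measured for RPL19B (YBL027W), RPL16A, RPL21A (YBR191W), RPL27A and RPL2B (YIL018W). For RPL19B, whose protein sits at the rim of the exit tunnel, the values were -4.01 and -3.75 in wild type, -2.65 and -2.85 in ptc6 and -3.92 and -3.96 in ptc1 ptc6 cells. Repression of this gene was 14.7-fold in wild type and 6.73-fold in ptc6 cells, a difference of 1.13 (0.90 to 1.36). RPL16A went from -4.33 and -4.25 in wild type to -3.08 and -3.38 in ptc6 and -4.09 and -3.77 in ptc1 ptc6 cells. The values of its 3 strains do not overlap, with ptc1 ptc6 in between. RPL21A had -4.32 and -3.76 in wild type, -3.02 and -3.07 in ptc6 and -3.84 and -4.34 in ptc1 ptc6 cells.

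Differences were smallest for RPL29 (YFR032C-A), RPL4B, RPL22B, RPL3 and RPL35B (YDL136W). RPL29, one of the genes whose protein is not essential, read -2.80 and -3.36 in wild type, -2.94 and -2.98 in ptc6 and -2.92 and -4.13 in ptc1 ptc6 cells. Its ptc1 ptc6 arrays lay 1.21 apart, the widest gap between the arrays of a strain in the group. RPL22B had -1.66 and -1.71 in ptc6 and -1.66 and -2.32 in ptc1 ptc6 cells, overlapping wild type in both mutants. Values of ptc6 and wild type cells overlapped for 7 genes in all, among them RPL4B, RPL33A (YPL143W), RPL35A (YDL191W) and RPL35B.

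**Figure D2:**
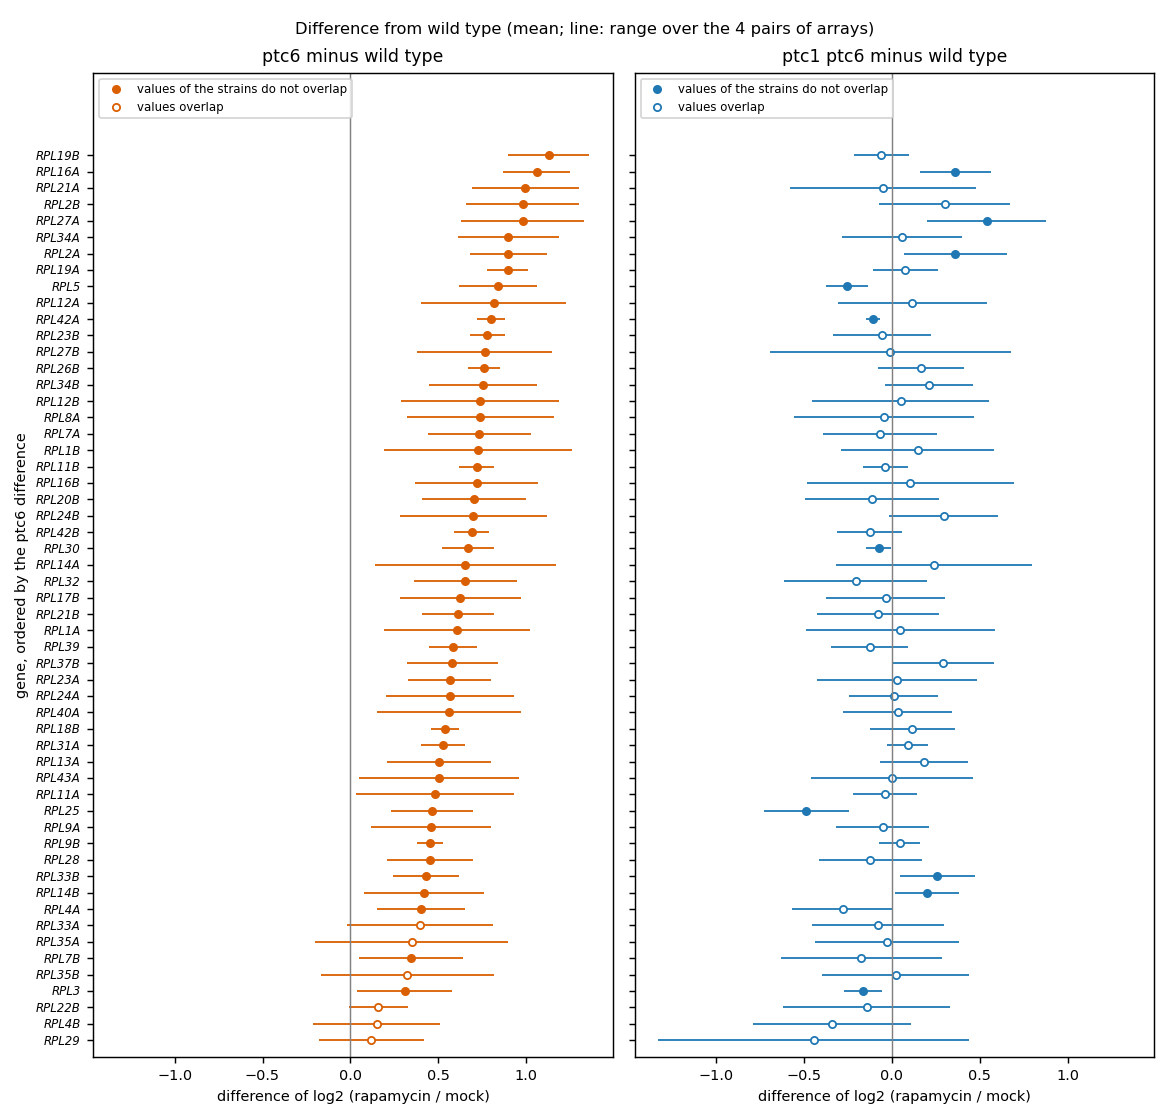
Difference from wild type in the log2 ratio of rapamycin-treated over mock cells (x axis) for 55 genes (y axis, ordered by the ptc6 difference), for ptc6 cells on the left and ptc1 ptc6 cells on the right; dots are differences of means, lines the range over the 4 pairs of arrays, and filled dots mark genes whose values in the 2 strains do not overlap. All ptc6 dots lie above 0 and 49 are filled, while ptc1 ptc6 dots lie around 0 and 10 are filled.

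The part of the wild type response that was missing in a mutant was expressed as the lost share, obtained by dividing the log2 ratio of the mutant by that of wild type cells and taking the quotient from 1. In ptc6 cells its median over the group was 0.173 (0.0969 to 0.244 over the pairs of arrays), with 0.0390 for RPL29 as the lowest and 0.291 for RPL19B as the highest. RPL19B alone reached 0.25. Other repressed ORFs had a median lost share of 0.275 in ptc6 cells, and 250 of 460 reached 0.25. The difference itself ran the other way, with a median of 0.54 for these ORFs and 0.62 for the group. On the linear scale, where the fold repression minus 1 takes the place of the log2 ratio, the median lost share was 0.382 for the group and 0.429 for the other repressed ORFs. Across the 56 genes, which are not independent replicates and share arrays, the line of ptc6 on wild type means had a slope of 0.700 (0.630 to 0.749) with r = 0.920. For comparison, array 2 on array 1 of wild type cells gave a slope of 0.828, and array 2 on array 1 of ptc6 cells gave 0.775.

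In ptc1 ptc6 cells the repression of the group was close to that of wild type cells. The median difference was -0.02 (-0.31 to 0.29 over the pairs of arrays), with 27 means higher and 29 lower than in wild type cells. This comparison and that of ptc6 cells share the wild type arrays. For 5 genes (8.93%) both ptc1 ptc6 values lay above both wild type values, against 19.4% of all ORFs and 48.7% of the other ORFs repressed in wild type cells. For another 5 they lay below, against 22.9% of all ORFs and 6.28% of the other repressed ORFs. With an array left out, the rule rests on fewer pairs of arrays, so the counts can only stay or rise. They were 20 genes lower without wild type array 1 and 33 lower without ptc1 ptc6 array 1. Without wild type array 2 they were 20 higher, and without ptc1 ptc6 array 2 they were 33 higher. The share of all ORFs under this looser rule was not computed. The median lost share was -0.00525 for the group and 0.127 for the other repressed ORFs, and the difference between both was not tested.

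The 5 genes that were less repressed in ptc1 ptc6 than in wild type cells on every pair of arrays were RPL27A, RPL2A (YFR031C-A), RPL16A, RPL33B (YOR234C) and RPL14B (YHL001W). RPL27A went furthest, from -4.48 and -4.07 in wild type to -3.60 and -3.87, a difference of 0.54 (0.20 to 0.88), and read -3.44 and -3.15 in ptc6 cells. RPL2A read -4.27 and -4.17 in wild type, -3.49 and -3.15 in ptc6 and -3.62 and -4.10 in ptc1 ptc6 cells. The 5 genes that were more repressed were RPL25 (YOL127W), RPL5, RPL3, RPL42A (YNL162W) and RPL30. In either set the distance between the strains could be very small. The nearest values lay 0.005 apart for RPL30 and 0.019 apart for RPL14B, and a gap of at least 0.25 was seen for 0 genes. RPL25, whose protein stands at the mouth of the tunnel where the signal recognition particle docks, read -3.84 and -3.78 in wild type, -3.55 and -3.14 in ptc6 and -4.09 and -4.51 in ptc1 ptc6 cells. It was thus least repressed in ptc6 and most repressed in ptc1 ptc6 cells, without overlap between any of the strains. The study lists RPL25 among the genes with lower mRNA in untreated ptc1 ptc6 than in untreated wild type cells. The means of RPL43A (YPR043W), RPL27B (YDR471W), RPL24A (YGL031C), RPL35B and RPL23A (YBL087C) differed between ptc1 ptc6 and wild type cells by less than 0.03.

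Set against ptc6 cells, the ptc1 ptc6 strain had a lower mean for 56 of 56 genes, by a median of 0.58 log2 units (0.23 to 0.95 over the pairs of arrays). Values did not overlap for 47 genes (83.9%), against 25.7% of all ORFs and 50.8% of the other ORFs repressed in wild type cells. The difference was widest for RPL19B, at -1.19, and narrowest for RPL33B, at -0.17. Genes with both ptc1 ptc6 values above both ptc6 values numbered 0, against 11.5% of all ORFs and 4.58% of the other repressed ORFs.

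Genes of the peptidyl transferase centre showed both the strong and the weak response of the group. Rpl2 and Rpl3 are the proteins closest to the catalytic site. RPL2B read -4.40 and -4.13 in wild type, -3.47 and -3.10 in ptc6 and -3.73 and -4.20 in ptc1 ptc6 cells. RPL3, a single copy gene, read -2.87 and -2.73 in wild type, -2.69 and -2.29 in ptc6 and -2.93 and -3.00 in ptc1 ptc6 cells. Its ptc6 difference of 0.31 was among the 5 smallest, yet its values did not overlap between any of the strains.

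The exit tunnel is lined by Rpl4, Rpl17 and Rpl39. RPL4A (YBR031W) read -3.05 and -2.93 in wild type, -2.78 and -2.40 in ptc6 and -3.05 and -3.50 in ptc1 ptc6 cells. RPL39 read -2.72 and -2.86 in wild type, -2.14 and -2.27 in ptc6 and -3.07 and -2.77 in ptc1 ptc6 cells. In both genes the ptc6 values lay above those of the other strains. RPL17B (YJL177W) was repressed further, with -4.12 and -3.83 in wild type, -3.55 and -3.15 in ptc6 and -3.82 and -4.20 in ptc1 ptc6 cells. RPL17A (YKL180W) had only 1 value in wild type, -2.15, and 1 in ptc6 cells, -2.26, and stayed out of all counts.

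At the rim of the tunnel, the means of 8 genes ranged from -4.19 to -1.84 in wild type cells. RPL26B (YGR034W) read -4.20 and -4.18 in wild type, -3.51 and -3.35 in ptc6 and -3.79 and -4.26 in ptc1 ptc6 cells. RPL31A (YDL075W), whose protein lies where the ribosome-associated chaperones bind, read -3.55 and -3.70, -3.15 and -3.05, and -3.49 and -3.58 in the same order of strains. Both are genes whose protein is not essential, and in both the ptc6 values lay above those of the other strains. RPL35B read -3.26 and -2.87 in wild type, -3.04 and -2.44 in ptc6 and -2.82 and -3.27 in ptc1 ptc6 cells, so that its 3 strains overlap.

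Among genes of the 5S ribonucleoprotein, RPL5 had the lowest mean of the whole group in ptc1 ptc6 cells. It read -3.64 and -3.27 in ptc6 and -4.47 and -4.63 in ptc1 ptc6 cells. Relative to the wild type values above, RPL5 was less repressed in ptc6 by 0.84 (0.62 to 1.06) and more repressed in ptc1 ptc6 cells by a difference of -0.26 (-0.37 to -0.14). RPL11A (YPR102C) and RPL11B (YGR085C), whose protein forms the particle together with Rpl5, had wild type means of -3.54 and -3.70 and differed from them in ptc1 ptc6 cells by -0.04 each.

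Of 8 genes for proteins of the factor-binding side and the stalk base, 7 had values in all strains. The median was -3.71 in wild type and -3.69 in ptc1 ptc6 cells over these 7, and -3.09 in ptc6 cells over all 8. RPL12A, the most repressed gene in wild type cells, read -3.77 and -3.47 in ptc6 and -4.16 and -4.48 in ptc1 ptc6 cells. RPL9A was the most repressed gene in ptc6 cells, at -4.11 and -3.73, and read -4.32 and -4.55 in ptc1 ptc6 cells. Both genes overlapped between wild type and ptc1 ptc6 cells, and neither overlapped with ptc6. RPL40A (YIL148W), which codes for a fusion of ubiquitin with a ribosomal protein, read -3.43 and -3.08 in wild type, -2.93 and -2.46 in ptc6 and -3.09 and -3.36 in ptc1 ptc6 cells. RPL40B (YKR094C) had only 1 wild type value, -3.24, with -2.52 and -2.96 in ptc6 cells and none in ptc1 ptc6 cells.

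The 4 genes of the E site and the L1 stalk, RPL1A (YPL220W), RPL1B (YGL135W), RPL42A and RPL42B (YHR141C), lay close together. Their wild type means ran from -3.57 to -3.25 and their ptc6 means from -2.92 to -2.56, which leaves a space between both ranges. RPL42A read -3.56 and -3.58 in wild type, -2.84 and -2.70 in ptc6 and -3.65 and -3.71 in ptc1 ptc6 cells.

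Medians of these structural classes in ptc6 minus wild type ran from 0.49 for the genes that line the tunnel to 0.90 for the peptidyl transferase centre, with 3 to 8 genes in a class. The 27 scored genes outside these classes had a median of 0.66. The ranges of single genes overlap between all classes. Of single copy genes not yet described, RPL28 (YGL103W), known for mutations that give resistance to cycloheximide, read -2.90 and -2.71 in wild type, -2.50 and -2.20 in ptc6 and -2.73 and -3.13 in ptc1 ptc6 cells. RPL32 (YBL092W) read -3.99 and -3.62, -3.26 and -3.04, and -3.79 and -4.23 in the same order.

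Genes with no partner among those chosen numbered 16, either as single copies or because the partner lies on chromosome XII or XIII, and 15 of them were scored. In ptc1 ptc6 cells 11 of these 15 had a lower mean than in wild type cells, the median difference being -0.12. Values lay below wild type without overlap for 4 (26.7%), against 22.9% of all ORFs and 6.28% of the other repressed ORFs. For RPL30, one of these 4, the nearest values lay only 0.005 apart. Values lay above wild type without overlap for 0, against 19.4% of all ORFs and 48.7% of the other repressed ORFs. Genes in a pair had a median of 0.02 in the same comparison. In ptc6 cells the medians were 0.58 and 0.66. Without a partner on the list, RPL8A (YHL033C), RPL13A (YDL082W), RPL20B (YOR312C) and RPL37B (YDR500C) had wild type means of -3.88, -3.28, -3.92 and -3.01. RPL36B (YPL249C-A) and RPL43B (YJR094W-A) had no row of values.

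A and B paralogs could be compared in 19 of 22 pairs in wild type cells, in 20 in ptc6 and in 19 in ptc1 ptc6 cells. The arrays carried whole ORFs made by PCR, so RNA of a paralog may bind to the spot of its partner, and the part of such sharing in these values was not tested. A and B values did not overlap in 8 pairs in wild type cells (42.1%), against 72.1% of all combinations of a pair of group members that are not paralogs. In ptc6 cells this held for 7 pairs, against 58.6%, and in ptc1 ptc6 cells for 8, against 59.4%. The median distance between A and B was 0.29 log2 units in wild type cells, and 0.50 between members that are not paralogs. For 9 pairs the sign of the difference was the same on all 6 arrays, with A lower in 7 and B lower in 2. The share of members that are not paralogs with 1 sign on all arrays was not computed. This count therefore cannot be set against a background.

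**Figure D3:**
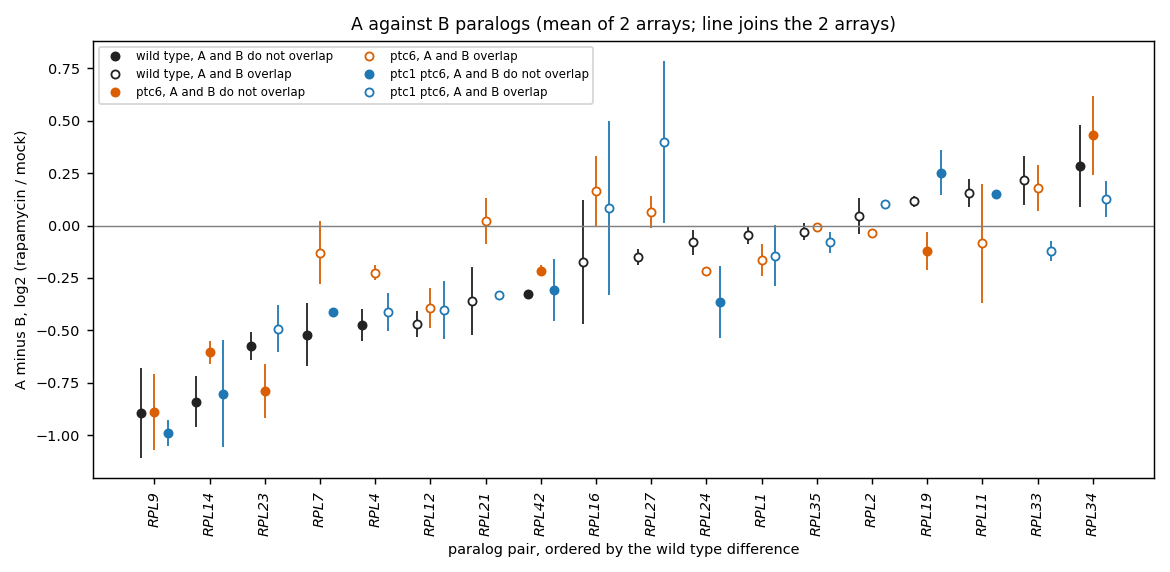
Difference between the A and the B paralog in the log2 ratio of rapamycin-treated over mock cells (y axis) for 18 of the 19 pairs with values on every array (x axis, ordered by the wild type difference); dots are means of the 2 arrays, lines join these arrays, and filled dots mark pairs whose A and B values do not overlap in that strain. Values below 0 mean that A was more repressed, as for RPL9 and RPL14 in all strains, and values above 0 that B was, as for RPL34 in wild type and ptc6 cells.

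A and B values were apart in all 3 strains for 4 pairs, among them RPL9, RPL14 and RPL42. How often members that are not paralogs are apart in all 3 strains was not computed. RPL9B (YNL067W) read -3.42 and -3.55 in wild type, -3.04 and -3.02 in ptc6 and -3.39 and -3.49 in ptc1 ptc6 cells. Against RPL9A this made a difference, A minus B, of -0.90, -0.89 and -0.99 in the 3 strains. The difference in the log2 ratio within the pair was thus as wide in both mutants as in wild type cells, although both genes were higher by 0.46 in ptc6 cells. RPL42A and RPL42B had A minus B of -0.33, -0.22 and -0.31.

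In the RPL14 pair, A read -4.35 and -3.91 and B -3.39 and -3.19 in wild type cells. A minus B was -0.84 there, -0.61 in ptc6 and -0.80 in ptc1 ptc6 cells. The RPL34 pair ran the other way, with A minus B of 0.29, 0.43 and 0.13.

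Other pairs separated in wild type cells. RPL23B (YER117W) read -3.21 and -3.07 against -3.85 and -3.58 for RPL23A, and A minus B was -0.58 in wild type, -0.79 in ptc6 and -0.49 in ptc1 ptc6 cells. In the RPL7 pair A minus B was -0.52 in wild type, -0.13 in ptc6 and -0.41 in ptc1 ptc6 cells. RPL7A (YGL076C) was higher in ptc6 than in wild type cells by 0.74 and RPL7B (YPL198W) by 0.34. RPL4A lay below RPL4B by 0.48 in wild type cells, with A minus B at -0.23 in ptc6 and -0.41 in ptc1 ptc6 cells. Whether such differences themselves differ between strains was not tested. The RPL35 paralogs, with A minus B of -0.03, -0.01 and -0.08, were the closest pair.

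The dye carried by the treated RNA moved with the values. In wild type and ptc6 cells, array 1 is the array whose treated RNA carried Cy3, whereas for ptc1 ptc6 it is the one with Cy5. With this RNA in Cy3, the log2 ratio was lower for 49 of 56 genes in wild type, 48 of 57 in ptc6 and 51 of 56 in ptc1 ptc6 cells, by medians of 0.25, 0.32 and 0.38. Among the other ORFs repressed in wild type cells, 64.0%, 65.2% and 55.6% were lower with Cy3. Strains were therefore also compared between arrays of the same dye. The median ptc6 minus wild type difference was 0.60 with Cy3, with 56 of 57 genes above 0, and 0.65 with Cy5, with 56 of 56 above 0. For ptc1 ptc6 minus wild type it was -0.04 and 0.03, and for ptc1 ptc6 minus ptc6 it was -0.66 and -0.60.

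**Figure D4:**
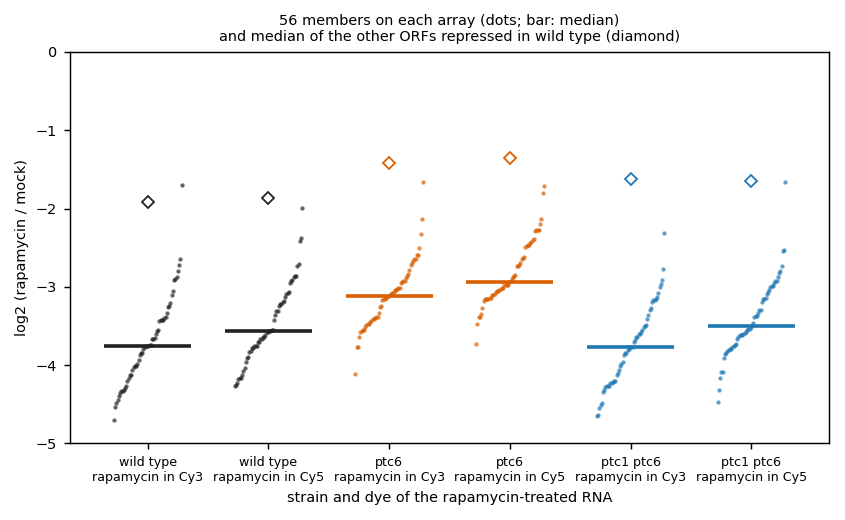
Log2 ratio of rapamycin-treated over mock cells (y axis) on each of the 6 arrays, grouped by strain and by the dye of the treated RNA (x axis); dots are the 56 genes, sorted, bars their median, and diamonds the median of the other ORFs that are repressed in wild type cells and have a value on all arrays. The median of the group is -3.75 and -3.57 in wild type, -3.12 and -2.94 in ptc6 and -3.77 and -3.51 in ptc1 ptc6 cells with Cy3 and Cy5. Within each dye the ptc6 median is the highest.

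Small subunit protein genes gave values close to those of the large subunit. Their medians were -3.65 in wild type, -3.09 in ptc6 and -3.75 in ptc1 ptc6 cells, from 40, 41 and 40 scored genes. Median lost shares were 0.157 in ptc6 and -0.0148 in ptc1 ptc6 cells, against 0.173 and -0.00525 for the large subunit. Factors that assemble the 60S subunit gave other values. Their medians were -3.07, -2.06 and -2.09, with lost shares of 0.342 and 0.163, and 30 of 38 reached a lost share of 0.25 in ptc6 cells. In ptc1 ptc6 cells 25 of 37 assembly factors lay above wild type without overlap (67.6%). This held for 5 of 56 large and 2 of 39 small subunit protein genes. It also held for 19.4% of all ORFs and 48.7% of the other ORFs repressed in wild type cells. The lists differ in how far they fell in wild type cells, and the difference between them was not tested.

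**Figure D5:**
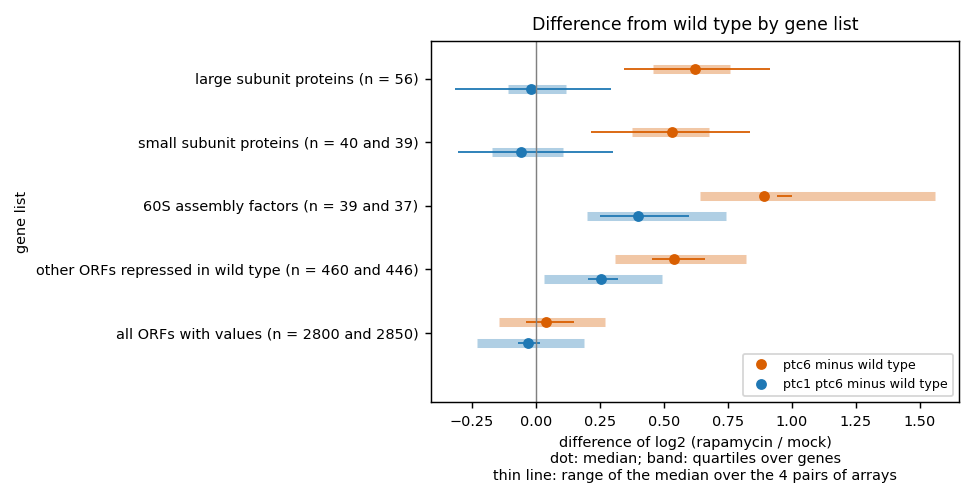
Difference from wild type in the log2 ratio of rapamycin-treated over mock cells (x axis) for 5 gene lists (y axis); dots are medians over genes, bands the quartiles over genes, and thin lines the range of the median over the 4 pairs of arrays. The ptc6 medians are 0.62 and 0.53 for proteins of the large and the small subunit and 0.89 for assembly factors, and the ptc1 ptc6 medians are -0.02, -0.06 and 0.40.

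Dedicated chaperones, which hold single large subunit proteins until they are built in, were all repressed in the 3 strains, with means above the median of the group in each. ACL4 (YDR161W), the chaperone of Rpl4, read -1.05 and -0.97 in wild type, -1.20 and -1.08 in ptc6 and -1.25 and -1.31 in ptc1 ptc6 cells. SYO1 (YDL063C), which carries Rpl5 and Rpl11 into the nucleus, read -2.74 and -3.08, -2.02 and -2.57, and -2.90 and -3.21. BCP1 (YDR361C), the chaperone of Rpl23, read -2.33 and -2.04, -1.32 and -1.28, and -1.96 and -1.29, and SQT1 (YIR012W), that of Rpl10, had means of -1.77, -1.19 and -1.56. ACL4 was thus lower in both mutants than in wild type cells without overlap, though its nearest wild type and ptc6 values were -1.05 and -1.08. The other 3 were higher in ptc6 cells without overlap. Of all ORFs, 29.3% were higher and 18.1% lower in ptc6 than in wild type cells in this way. Of the other repressed ORFs these shares were 76.5% and 1.09%. In ptc1 ptc6 cells 22.9% of all ORFs and 6.28% of the other repressed ORFs were lower without overlap.

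The 4 acidic stalk proteins had wild type means between -3.69 and -3.02. In ptc6 cells they were higher by 0.25 to 0.49, without overlap for 3 of them. Of all ORFs 29.3%, and of the other repressed ORFs 76.5%, were higher without overlap. RPP1B (YDL130W) was the only stalk protein gene with a higher mean in ptc1 ptc6 than in wild type cells. It read -3.77 and -3.60 in wild type and -2.91 and -3.35 in ptc1 ptc6 cells.

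Of 7 regulators of ribosomal protein genes, 5 were scored in wild type cells. RAP1 (YNL216W), which binds the promoters, read -1.44 and -1.19, and YAK1 (YJL141C), a kinase that acts when TORC1 is inhibited, read 1.20 and 1.65, while the means of the other 3 lay within 2-fold.

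Other features of the genes were set beside their values. The 9 genes whose protein is not essential had medians of -3.25 in wild type, -2.96 in ptc6 and -3.53 in ptc1 ptc6 cells, and the others had -3.69, -3.04 and -3.69, from 47, 48 and 47 scored genes, with ranges that overlap. Next to another ribosomal protein gene were 7 genes. RPL39 and RPS22A (YJL190C), which diverge from a shared intergenic region, had wild type means of -2.79 and -5.15, and both were higher in ptc6 cells, at -2.21 and -4.17. RPL24A and RPL30, also divergent, had wild type means of -3.26 and -3.71 and ptc6 means of -2.69 and -3.04.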

How the data were processed

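The authors grew each strain with rapamycin or vehicle, labelled the RNA with Cy3 and Cy5, hybridised it to arrays of PCR-made ORFs, scanned them with GenePix Pro, excluded spots under a minimum size or signal and processed the ratios with GEPAS. The deposited value of an ORF on an array is a log2 ratio, treated over mock cells, and was used as given. The normalization behind it is not given in the sources used here, and intensities were not used here.

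A strain's value was the mean of its 2 arrays, with values on both required. Repressed means below -1. Strains do not overlap when both values of one lie above both of the other. Backgrounds leave out chromosomes XII and XIII, whose rows are shifted in some columns. The genes and lists were chosen with earlier results of these data known, and the lists come from general knowledge. Genes named are the 5 most and 5 least repressed in wild type cells, the 5 largest non-overlapping and 5 smallest differences of each mutant, pairs that separate in wild type cells, genes without a partner, RPL16A and RPL30, whose promoters the study examined, and the chaperones and stalk proteins. RPL1, RPL11, RPL17, RPL35, RPL40 and RPL42 genes, RPS22A and others outside this rule were added after their values were seen, to show each structural class. A gene that the rule names is not reported here by name; it stays in the counts and medians. Steps were tested on simulated data. Alternatives covered arrays left out, centring, thresholds, gaps, dyes and the linear scale. Gene symbols were matched to the RefSeq R64 annotation (60 of 60). Python 3.11.15, numpy 2.4.6, pandas 2.3.3 and matplotlib 3.10.9 were used.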

Additional observations from a re-analysis of the deposited data

How the results depend on the processing

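No paired analysis was possible because the values come from no test, and arrays of the same dye were only compared as values. Of 134 values of the counts and medians of the group under other settings, 115 stayed within 1.5 times the count or within the spread between arrays. That spread comes from the same arrays, so leaving 1 of them out tends to keep a median inside it. None was scored as changing direction, but counts had no direction to change. A median smaller than its spread, as for ptc1 ptc6 minus wild type, could not be scored so either. These labels therefore do not measure how stable the results are. Leaving out 1 array at a time moved the median ptc6 minus wild type difference between 0.47 and 0.77, that of ptc1 ptc6 minus wild type between -0.16 and 0.16, and that of ptc1 ptc6 minus ptc6 between -0.78 and -0.40. The counts of genes without overlap then ran from 50 to 55 higher and 0 to 1 lower in ptc6 than in wild type, from 6 to 33 higher and 6 to 33 lower in ptc1 ptc6 than in wild type, and from 0 to 2 higher in ptc1 ptc6 than in ptc6. These counts rest on fewer pairs of arrays, so they can only stay or rise, and the share of all ORFs was not computed for them. With 1 array left out of a strain, each gene of a pair has 1 value, so A and B count as apart unless these are equal. The resulting counts of 19 to 20 pairs in wild type, 20 in ptc6 and 19 in ptc1 ptc6 cells were thus fixed by the rule. They show nothing about how far A and B differ. With each array centred on its median, 3 genes were higher in ptc1 ptc6 than in wild type without overlap. A gap of at least 0.25 left 0 genes higher and 0 lower in ptc1 ptc6 than in wild type, 27 lower in ptc1 ptc6 than in ptc6, 3 pairs in ptc6 and 2 in ptc1 ptc6 cells. The shares of all ORFs and of combinations that are not paralogs were not computed at this gap. These counts therefore cannot be set against a background. On the linear scale the median lost share in ptc6 cells was 0.382. Over all ORFs, chromosomes XII and XIII included, 30.7% were higher in ptc6 than in wild type without overlap. Rows of these chromosomes are shifted in some columns, so this share may set values of different genes against each other there.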
